A study of Rattus norvegicus with 10 samples.

Results

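Gja5 and Aqp1 were followed in RNA sequencing of myoblasts cultured from the soleus muscle of rats. They are 2 of the 32622 genes counted, taken by their Ensembl identifiers (ENSRNOG00000017484 for Gja5 and ENSRNOG00000011648 for Aqp1) from the list of changed genes published with these data. Both had thus been called on these same libraries. Gja5 had been called in HS3, HS7 and HS14 against Control, and Aqp1 in HS1, HS7 and HS14 against Control. Those differences, and differences between groups whose direction follows from them, are therefore given as descriptions without a test. A test is given only for a pair of groups in which the gene had been called for neither group against Control, or for both in the same direction. These tests still share libraries with the comparisons that chose the genes.

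The cells came from 3-month-old male Wistar rats. Control rats lived in ordinary cages, and the rats of HS1, HS3, HS7 and HS14 were kept in hindlimb suspension for 1, 3, 7 or 14 days, which takes the weight off the hindlimb muscles while the animal moves on its forelimbs. Soleus muscles were digested and the cells were kept in serum-rich medium until 3 days after digestion. Fibro-adipogenic progenitors were then reduced by letting them adhere first (pre-plating). The remaining cells grew in serum-rich medium for 1 day after that step, without further treatment. Each group had 2 libraries, and the sources do not say whether these came from different animals or cultures, so the spread given here may be technical. Total counts lay between 20200972 and 28175200 per library. Levels are given as CPM, counts scaled to a common library size after TMM normalisation. Fewer than 3 counts were read as not detected, a floor of 0.104 to 0.152 CPM depending on the library. The myogenic markers that could be identified, Myog, Mymk and Mymx, were detected in all 10 libraries. Because these are cultures in bulk, fewer cells of a type and less RNA per cell cannot be told apart.

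Gja5 encodes connexin 40, a protein of gap junctions. Connexins assemble into channels in the membrane, and channels of neighbouring cells dock so that ions and small molecules pass directly from one cell to the other. Connexin 40 is best known from arterial endothelium and from the atria and conduction system of the heart, while connexins as a family also couple myoblasts before they fuse. Aqp1 encodes aquaporin 1, a channel that lets water cross the membrane along osmotic gradients, and it is abundant in red blood cells, capillary endothelium and kidney tubules.

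The sequences around the 2 annotated transcription starts are shown as background. Whether these starts were used in these cells, or bear on the levels measured, was not tested. Each runs from 250 bases before to 50 bases after the RefSeq start (assembly GRCr8, plus strand), at chr2:187290977-187291276 for Gja5 and chr4:85812534-85812833 for Aqp1. Capitals mark matches on either strand to the TATA box TATAAA, the E-box CANNTG bound by the myogenic factors, and the motif of MEF2, a muscle transcription factor.
Gja5: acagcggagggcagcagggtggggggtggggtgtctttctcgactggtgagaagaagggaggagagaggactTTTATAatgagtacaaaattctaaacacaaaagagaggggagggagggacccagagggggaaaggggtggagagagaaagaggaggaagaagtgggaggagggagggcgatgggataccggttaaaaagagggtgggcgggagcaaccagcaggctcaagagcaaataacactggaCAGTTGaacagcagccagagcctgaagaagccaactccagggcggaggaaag
Aqp1: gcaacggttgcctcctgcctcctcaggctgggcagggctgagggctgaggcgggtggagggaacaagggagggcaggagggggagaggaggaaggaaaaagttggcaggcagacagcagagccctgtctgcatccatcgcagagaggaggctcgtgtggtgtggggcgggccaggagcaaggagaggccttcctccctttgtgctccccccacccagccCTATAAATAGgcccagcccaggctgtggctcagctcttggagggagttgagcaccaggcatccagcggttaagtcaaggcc
The Gja5 window held 1 TATAAA match, on the minus strand at position -178, and 1 E-box at position -2. Positions are those of a match's leftmost base, counted from the start with -1 as the base just before it. The Aqp1 window held TATAAA at position -30, inside a 10-base MEF2 match that begins at -31, and no E-box. Over the 33469 RefSeq promoter windows of this length, 14.2% held TATAAA, 72.1% an E-box and 3.29% a MEF2 match. Other motifs were searched for but not marked. The GATA core GATAA was in neither window, and in 26.5% of all. The T-box core GGTGTG was only in the Aqp1 window, at -93, and in 17.9% of all. The GC box GGGCGG had 2 matches in the Gja5 window and 1 in the Aqp1 window, and was in 33.1% of all. The GC content was 55.3% for Gja5 and 64% for Aqp1, against a median of 51.7%. Such matches describe the letters in these windows and show no binding.

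The level of Gja5 moved over a wide range, with group means 48.6-fold apart between HS3 and HS14. In Control, Gja5 stood at 4.03 CPM in replicate 1 and 4.55 CPM in replicate 2 (102 and 120 counts). In HS1 it stood at 3.52 and 2.18 CPM (86 and 50 counts). In HS3 it stood at 35.7 and 39.2 CPM (702 and 987 counts). Both HS1 libraries were thus below both Control libraries, and both HS3 libraries lay far above all of these. In HS7 Gja5 stood at 47.2 and 26.1 CPM (1164 and 662 counts), and in HS14 at 1.04 and 0.505 CPM (30 and 12 counts). The HS7 libraries enclosed those of HS3, and the HS14 libraries were the lowest of all, although above the detectable level.

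In order of group means, Gja5 was highest in HS3 at 37.5 ± 2.52 CPM (SD, n = 2), followed by HS7 at 36.7 ± 14.9 CPM (SD, n = 2), Control at 4.29 ± 0.367 CPM (SD, n = 2), HS1 at 2.85 ± 0.946 CPM (SD, n = 2) and HS14 at 0.771 ± 0.376 CPM (SD, n = 2). The level in HS3 was not told apart from that in HS7, nor HS1 from Control, as the tests below show. The libraries of HS7 and Control did not overlap, nor did those of HS1 and HS14. The replicates of HS7 differed 1.81-fold, and their 95% exact Poisson intervals, from 44.5 to 50 CPM and from 24.2 to 28.2 CPM, stood apart. The intervals of the HS14 libraries, from 0.7 to 1.48 CPM and from 0.261 to 0.883 CPM, overlapped. These intervals cover counting error only. Because at least 69.4% of counts from 1 to 20 were even numbers in each library, a read pair may have added 2 counts. With counts halved on that account, the HS14 intervals widened to 0.581 to 1.71 CPM and 0.185 to 1.1 CPM.

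**Figure D1:**
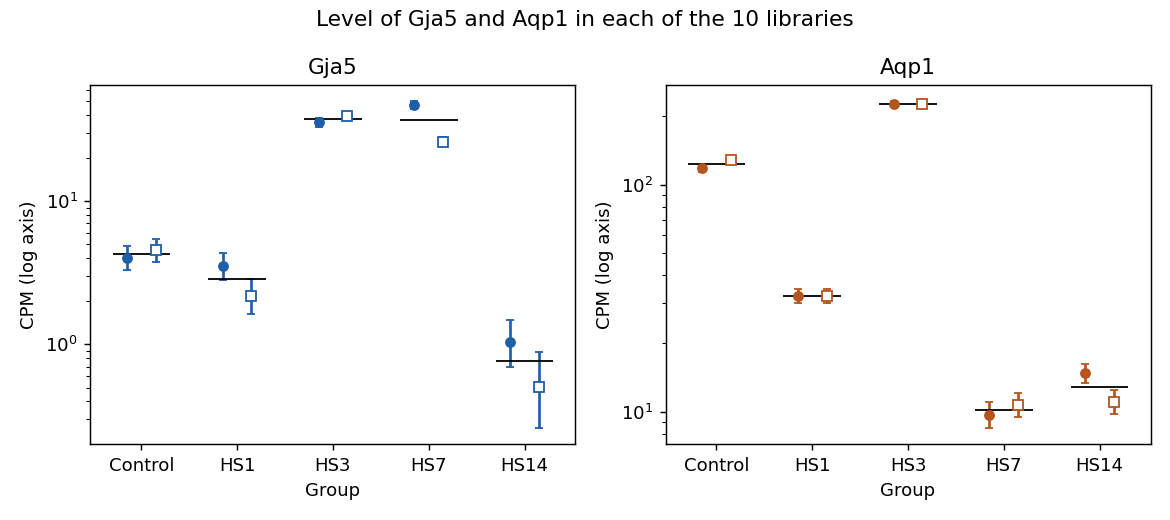
CPM on a log axis for Gja5 (left) and Aqp1 (right) in the 10 libraries, grouped by condition. Filled circles are replicate 1, open squares replicate 2, vertical bars 95% exact Poisson intervals of the counts, and horizontal lines group means. Gja5 is high in HS3 and HS7 and lowest in HS14, while Aqp1 is high in Control and HS3 and low in HS7 and HS14.

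For Gja5, 2 differences could be tested with edgeR's quasi-likelihood test and Benjamini-Hochberg adjustment over all genes. In HS1 against Control the log2 fold change was -0.59 ± 0.26 (SE), with an adjusted p of 0.101 in edgeR, which did not pass the threshold of 0.01, as against 16.9% of the 13013 genes tested that did. Both HS1 libraries were below both Control libraries, and an interval of 2 standard errors reached from -1.1 to -0.07. Separation of 2 against 2 libraries shows no difference by itself, since a two-sided exact permutation test cannot go below p = 0.333. In HS7 against HS3 the log2 fold change was -0.05 (standard error 0.32, adjusted p = 0.928 in edgeR), with an interval from -0.69 to 0.58, as against 23% of the 13164 genes that passed. The sign of that difference turned on single libraries. Without HS7 replicate 1 the log2 fold change was -0.53, and without HS7 replicate 2 it was 0.31. Such a fit holds no spread between HS7 libraries, so only its size is given. Over the alternatives that kept all libraries, the adjusted p lay between 0.798 (edgeR with a replicate block) and 0.963 (DESeq2).

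The other differences of Gja5 are descriptions. Against Control, the log2 fold change was 3.12 in HS3 (standard error 0.13), 3.09 in HS7 (standard error 0.44) and -2.44 in HS14 (standard error 0.33). In HS3 it was the increase of rank 14 among the 13133 genes tested. From HS7 to HS14 the log2 fold change was -5.51 (standard error 0.61), the decrease of rank 2 among 13109 genes. From HS1 to HS3 it was 3.72 (standard error 0.17). Whether Gja5 was called in HS7 against Control depended on the fit, as it did in HS7 against HS1 and in HS14 against HS7. In the main fit Gja5 was called in neither of the latter, beside 5.23% and 2.04% of all genes tested that were. With the thresholds of 1.5 on the absolute log2 fold change and 0.01 on the adjusted p, 1 of the 2 genes, Aqp1, was past both in HS7 against Control, beside 3.59% of all genes tested, and 2 were with DESeq2, with all 10 libraries in one fit or with a replicate block. Since the published call in HS7 helped to choose the genes, nothing is read from these calls.

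Aqp1 took another course, with replicates closer to each other than those of Gja5 in HS1, HS3, HS7 and HS14. In Control, Aqp1 stood at 118 and 128 CPM (2987 and 3367 counts). In HS1 it stood at 32.5 and 32.3 CPM (796 and 742 counts), and in HS3 at 226 CPM in both replicates (4447 and 5679 counts). The HS1 libraries were below and the HS3 libraries above both Control libraries. In HS7 Aqp1 stood at 9.69 and 10.7 CPM (239 and 272 counts), and in HS14 at 14.8 and 11.1 CPM (427 and 264 counts). All 4 of these libraries were below those of HS1, and every count lay far above the detectable level.

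The order of group means for Aqp1 was HS3 at 226 ± 0.159 CPM (SD, n = 2), Control at 123 ± 6.8 CPM (SD, n = 2), HS1 at 32.4 ± 0.152 CPM (SD, n = 2), HS14 at 12.9 ± 2.58 CPM (SD, n = 2) and HS7 at 10.2 ± 0.744 CPM (SD, n = 2). Neighbours in this order did not overlap, but HS14 and HS7, the lowest pair, were not told apart by the test. The ratio of the highest to the lowest group mean was 22.1. The 95% Poisson intervals of the 2 replicates overlapped in HS1, HS3 and HS7. In Control they reached from 114 to 122 CPM and from 123 to 132 CPM, and in HS14 from 13.4 to 16.2 CPM and from 9.82 to 12.5 CPM, in each case without overlap. With counts halved they overlapped in both groups.

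For Aqp1, 4 differences could be tested. Aqp1 rose in HS3 against Control, by 0.87 ± 0.07 (SE) on the log2 scale (adjusted p = 1.67e-06 in edgeR), and was higher in both HS3 libraries than in either Control library. In this comparison 7% of the 13133 genes were called as higher. Aqp1 was lower in HS7 than in HS1 with a fitted log2 difference of -1.68 ± 0.12 (SE) and an adjusted p of 3.29e-08 in edgeR, where 16.7% of genes were called as lower. It was also lower in HS14 than in HS1, by -1.34 (standard error 0.12, adjusted p = 1.16e-07 in edgeR), where 12.8% of genes were. Aqp1 thus stood lower after 7 and 14 days of suspension than after 1 day. From HS7 to HS14 the log2 fold change was 0.35 ± 0.16 (SE). It missed the threshold (adjusted p = 0.0988 in edgeR), which 23.5% of the 13109 genes passed. Its interval of 2 standard errors reached from 0.03 to 0.67, and both HS14 libraries were above both HS7 libraries. Such a separation of 2 against 2 libraries shows no difference by itself, with p = 0.333 at best in a two-sided exact permutation test.

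As descriptions, the log2 fold change of Aqp1 against Control was -1.92 in HS1 (standard error 0.07), -3.58 in HS7 (standard error 0.09) and -3.24 in HS14 (standard error 0.09). The decrease in HS7 had rank 16 among 13164 genes. Between the suspended groups it was 2.81 from HS1 to HS3 (standard error 0.09), -4.48 from HS3 to HS7 (standard error 0.1) and -4.14 from HS3 to HS14 (standard error 0.11). The decrease from HS3 to HS7 had rank 15 among 13164 genes. Counting the genes past both thresholds against Control, 1 of 2 was past them in HS1 (Aqp1, beside 2.27% of all genes), 1 of 2 in HS3 (Gja5, beside 1.13%) and 2 of 2 in HS14 (beside 2.54%). The published calls in these same groups helped to choose the genes, so nothing is read from these counts.

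**Figure D2:**
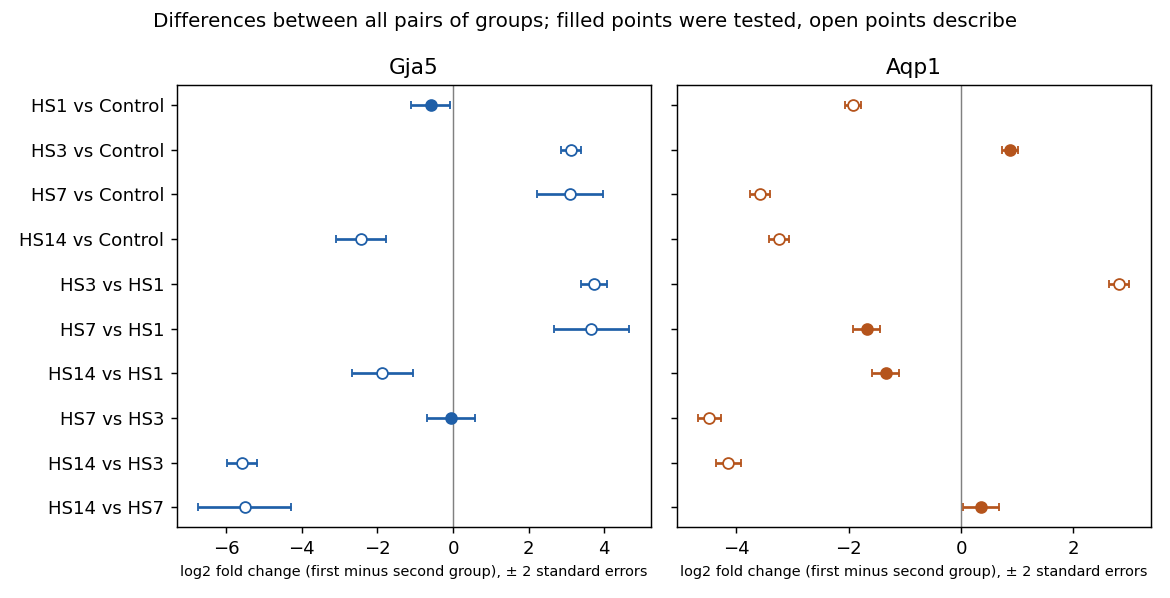
Fitted log2 fold change (first minus second group named) with bars of 2 standard errors for the 10 pairs of groups, Gja5 left and Aqp1 right. Filled points are differences that were tested and open points descriptions; both genes stand above 0 in HS3 against HS1 and against Control, and in HS7 against HS3 Gja5 stands at -0.05 and Aqp1 at -4.48.

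Set side by side, both genes had their highest group mean in HS3 and lower means in HS1 and HS14 than in Control. They parted in HS7. There Gja5 stood at 855% of its Control mean and Aqp1 at 8.29%, whereas in HS3 they stood at 874% and 184%. In HS14 they stood at 18% and 10.5%, and in HS1 at 66.4% and 26.3%. These percentages are ratios of levels within a gene. Because CPM is not scaled to transcript length, the level of one gene was not compared with that of the other. All comparisons with Control share the same 2 Control libraries.

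To show which genes had a like pattern, log2 CPM was correlated over the 10 libraries with that of each of the 13690 other genes expressed. The libraries of a group are shared by all genes, so these coefficients are descriptions. For Gja5, Pearson's r was above 0.9 for 153 genes (1.12%). The 5 most like it were taken from the 768 that carry a symbol. Ryr1, the calcium release channel of the sarcoplasmic reticulum, had r = 0.987 and a Spearman coefficient of 1, so that both genes put the 10 libraries in one order. Myl1, a myosin light chain, followed with r = 0.982. Sln, the small inhibitor sarcolipin of the calcium pump, had r = 0.974 and also a Spearman coefficient of 1. Myom1, myomesin of the M-band, had r = 0.968 and Tnnc2, fast troponin C, r = 0.965. No gene without a symbol exceeded Ryr1.

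The genes most like Gja5 moved over a narrower range. Ryr1 had mean levels of 31.4 CPM in Control, 23.9 CPM in HS1, 88.2 CPM in HS3, 85.4 CPM in HS7 and 17.4 CPM in HS14. Myl1 had 24.9, 20.4, 68.2, 85.9 and 11.9 CPM in the same order. Sln had 20.2, 10.2, 42.4, 53.4 and 5.4 CPM. They also shared the gap between the HS7 libraries. Replicate 1 was higher than replicate 2 in HS7 by 1.81-fold for Gja5, 1.68-fold for Ryr1, 2.05-fold for Myl1, 1.91-fold for Sln, 1.54-fold for Myom1 and 1.69-fold for Tnnc2, whereas the median over all expressed genes was 1.01-fold and the 90th percentile 1.33-fold. The likeness was computed over these same libraries. In HS14 the ratio was 2.05 for Gja5, on 30 and 12 counts, and between 0.99 and 1.27 for these 5 genes.

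For Aqp1, r was above 0.9 for 402 genes (2.94%), of which 87 carry a symbol. Among the 768 with a symbol, the 5 most like Aqp1 began with Bmp2, a bone morphogenetic protein (r = 0.995). Nrn1, the membrane-anchored growth-promoting protein neuritin (r = 0.994), and Fam102a (r = 0.988) followed. Then came Nptx1, a secreted pentraxin (r = 0.987), and Dlx2, a homeobox transcription factor (r = 0.986). Bmp2 had mean levels of 22.8 CPM in Control, 11.1 CPM in HS1, 27.9 CPM in HS3, 5.24 CPM in HS7 and 6.59 CPM in HS14. Nptx1 stood at 23.7, 13.4, 41.3, 4.92 and 7.46 CPM in the same order. Dlx2, at a low level, stood at 3, 0.738, 4.65, 0.26 and 0.272 CPM. Replicate 1 over replicate 2 in HS7 was 0.902 for Aqp1 and between 0.858 and 1.2 for these genes, so the gap between the HS7 libraries seen with Gja5 was not seen here.

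**Figure D3:**
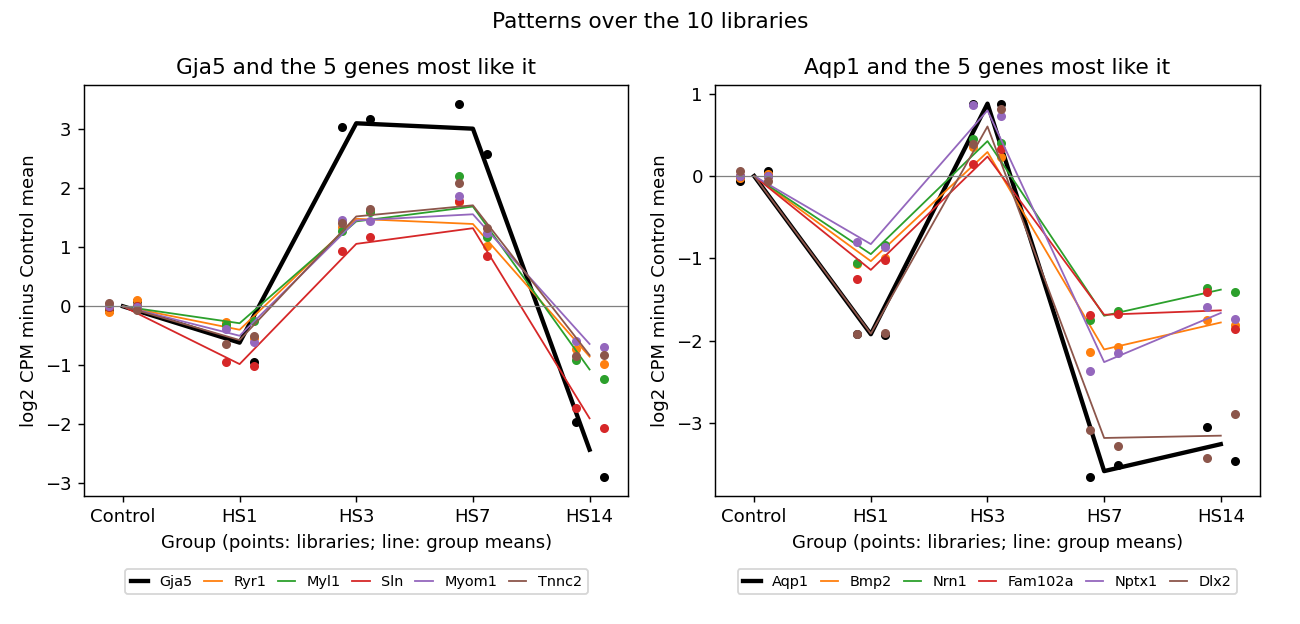
log2 CPM minus the Control mean for Gja5 (left, black) and Aqp1 (right, black) with the 5 genes of highest Pearson correlation to each. Only genes with a symbol were taken. Points are libraries, with replicate 1 left of replicate 2, and lines join group means. The Gja5 libraries lie at 3.034 and 3.171 in HS3 and at 3.436 and 2.586 in HS7, above all points of the 5 other genes in the left panel.

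Of the genes of both families, few could be followed, because symbols came from the published list and so cover genes called on these samples at some time point. The counts over such lists, and the adjusted p of single genes in them, are therefore no independent evidence of a direction. Of 23 connexins and pannexins, 2 had an identifier, Gja5 and Gjd4, a connexin known from developing muscle. Gjd4 was at or near the detectable level in Control (0.0395 and 0.152 CPM) and HS1 (0.123 and 0.131 CPM), and stood at 1.32 and 1.43 CPM in HS3, 2.72 and 1.42 CPM in HS7 and 0.346 and 0.0842 CPM in HS14. The 2 connexins thus had their high libraries in the same groups. It passed the filter on low counts against Control only with HS3 and HS7, where it was high, so its values are a description, and no fold is given against a level this near the floor.

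Of 12 aquaporins, 2 had an identifier, Aqp1 and Aqp8. Aqp8, a channel for water and related small molecules, stood at 14.9 and 16.9 CPM in Control, 3.92 and 4.79 CPM in HS1, 15.1 and 16.4 CPM in HS3, 3.61 and 2.29 CPM in HS7 and 2.8 and 1.98 CPM in HS14. Both aquaporins were lower than Control in HS1, HS7 and HS14, with log2 fold changes of -1.87, -2.43 and -2.72 for Aqp8, all past the adjusted p of 0.01. In HS3 the Aqp8 libraries overlapped those of Control (log2 fold change -0.02, adjusted p = 0.946 in edgeR), where Aqp1 rose.

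Both genes belong to the term renal system process, for which the published lists give 18 genes. In HS1, 13 of the 18 were lower and 1 higher than Control at an adjusted p under 0.01, with a median log2 fold change of -1.8, while 10.5% of all genes were lower and 6.38% higher. In HS3, 10 were higher and 0 lower, with a median of 0.91. In HS7, 11 of the 17 tested were lower and 1 higher (median -1.49), beside 16.2% and 16.6% of all genes, and in HS14, 14 of 17 were lower and 0 higher (median -2.03), beside 17% and 15.8%. The median of all genes lay between -0.01 and 0.01. In HS3 the background was 7% higher and 4.51% lower. These genes were listed because they had been called on these samples. The members with the largest changes, besides Gja5 and Aqp1, were the adrenergic receptor Adra1d, the receptor phosphatase Ptpro, the vasopressin receptor Avpr1a and the adipocyte hormone Adipoq. Avpr1a stood at 22.9 and 23.7 CPM in Control and at 1.18 and 2.02 CPM in HS14. Adra1d stood at 1.74 and 1.29 CPM in Control, 3.46 and 3.62 CPM in HS3, and 0.0692 and 0 CPM in HS14. Ptpro stood at 0.712 and 1.21 CPM in Control. With 2 and 0 counts each, Adra1d and Ptpro were below the detectable level in HS14. Adipoq was near that level in Control (4 and 6 counts). The size of the change is thus uncertain for Adra1d, Ptpro and Adipoq.

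The 4 genes of fluid transport are Aqp1, Aqp8, the hyaluronan synthase gene Has2 and the endothelin receptor gene Ednrb. All 4 were lower than Control in HS1, HS7 and HS14, beside 10.5%, 16.2% and 17% of all genes. Both this term and the next were listed from genes called on these samples, so their counts are no independent evidence. In HS3, Aqp1 and Has2 were higher, 2 of 4 beside 7% of all genes. Has2 stood at 235 and 213 CPM against 114 and 118 CPM in Control (log2 fold change 0.94, adjusted p = 1.43e-06 in edgeR). Of the 11 genes of regulation of systemic arterial blood pressure, which include Gja5, 8 were higher in HS3 (median 1.59) and 8 lower in HS14 (median -1.83). In HS7, 6 were lower and 1 higher, and in HS1, 7 were lower and 1 higher. Of all genes, 7% were higher in HS3, 17% lower in HS14, 16.2% lower and 16.6% higher in HS7, and 10.5% lower and 6.38% higher in HS1. Postn, a secreted matrix protein named here after its values were seen, was the 1 higher in HS7, at 608 and 464 CPM against 142 in both Control libraries.

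Gja5 is known from arterial endothelium, and of 16 arterial endothelial genes 4 had an identifier, Gja5 among them. The other genes named here and below also carry a symbol because they had been called on these samples. Their adjusted p are thus descriptions. Acvrl1, a receptor for bone morphogenetic proteins, stood at 27.3 and 30.8 CPM in Control, 4.7 and 4.84 CPM in HS1, 59.2 and 66.8 CPM in HS3, 20.2 and 17.8 CPM in HS7 and 11.3 and 8.46 CPM in HS14. It was lower than Control in HS1, HS7 and HS14 and higher in HS3, each with an adjusted p of at most 0.000262 in edgeR. Its HS7 libraries were thus below Control where those of Gja5 were above. Notch1, the receptor, was higher in HS7 (log2 fold change 1.65, adjusted p = 1.06e-05 in edgeR). Hey2, a repressor downstream of Notch, was higher in HS7 (2.39, adjusted p = 8.65e-05 in edgeR) and in HS14 (1.88, adjusted p = 0.000186 in edgeR), where Gja5 was lowest. In HS3, where the mean of Gja5 was highest, Notch1 did not pass (0.3, adjusted p = 0.274 in edgeR). Nor did Hey2 in HS3 (-0.29, adjusted p = 0.757 in edgeR) or Notch1 in HS14 (0.34, adjusted p = 0.106 in edgeR).

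Of 12 factors known to regulate Gja5, 3 had an identifier: Hey2, Notch1 and Gata6, a zinc finger transcription factor. Gata6 stood at 1.62 and 2.05 CPM in Control, 4.12 and 4.33 CPM in HS3 and 0.38 and 0.842 CPM in HS14. It was higher in HS3 (log2 fold change 1.2, adjusted p = 0.00596 in edgeR) and lower in HS14 (-1.62, adjusted p = 0.00288 in edgeR), the directions of Gja5 at these time points. In HS7, where Gja5 was high, Gata6 stood at 1.22 CPM in both libraries (-0.58, adjusted p = 0.21 in edgeR).

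Markers of other cell types moved between the groups too. Of 14 endothelial markers 6 had an identifier, and their summed level was 2.37 to 4.86 CPM in Control, 1.39 to 1.48 CPM in HS1, 8.39 to 9.35 CPM in HS3, 9 to 11.7 CPM in HS7 and 15.3 to 16.8 CPM in HS14. The defining marker Cdh5, VE-cadherin, stood at 0.237 and 0.152 CPM in Control, 3.24 and 1.97 CPM in HS7 and 5.15 and 4.42 CPM in HS14, and Emcn was at 0 in both HS1 libraries. The markers other than Kdr were near the floor in Control and HS1, so they are given as levels without a count of calls. Kdr, the main receptor for vascular endothelial growth factor, had another order. It stood at 1.74 and 3.41 CPM in Control, 0.572 and 0.784 CPM in HS1, 8.03 and 6.8 CPM in HS3, 3.32 and 2.92 CPM in HS7 and 3.18 and 3.2 CPM in HS14. Kdr made up most of the sum in Control and in HS3. Cdh5 stood at 0.61 and 0.636 CPM in HS3, and Tie1 had a mean of 0.3 CPM there and 0.462 CPM in Control. The sum was thus largest in HS14, where Gja5 was lowest, while Kdr was highest in HS3, where both genes were high.

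The sum of the myogenic markers Myog, Mymk and Mymx was 314 to 328 CPM in Control, 158 to 171 CPM in HS1, 536 to 568 CPM in HS3, 901 to 1230 CPM in HS7 and 224 to 266 CPM in HS14. These are 3 of 8 listed, the transcription factor myogenin and 2 proteins of myoblast fusion. The groups in which this sum was above Control, HS3 and HS7, were those in which Gja5 was. Myog stood at 884 and 670 CPM in the HS7 libraries, so that replicate 1 was the higher one, as for Gja5. Their part in the result was not tested.

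Of 7 fibro-adipogenic markers 5 had an identifier, and their sum, most of it Col1a1, was 6860 to 7330 CPM in Control, 2240 CPM in both HS1 libraries, 14600 to 18500 CPM in HS3, 8110 to 8160 CPM in HS7 and 2730 to 2910 CPM in HS14. Pdgfra, the receptor that defines these cells, stood at 147 and 149 CPM in Control, 30.4 and 31.5 CPM in HS1, 304 and 297 CPM in HS3, 62.4 and 62.7 CPM in HS7 and 59 and 57.3 CPM in HS14. Like Aqp1 it was highest in HS3, then in Control, and lower in the other groups, but it was lowest in HS1 and Aqp1 in HS7. Dcn, the proteoglycan decorin, had another order, with 165 and 160 CPM in Control, 80.2 and 74.9 CPM in HS3 and 439 and 454 CPM in HS14. In HS7, where Aqp1 was lowest, Pdgfra was the only one of the 5 with a mean below Control. The means in Control and HS7 were 6.94 and 13 CPM for Lum and 3.5 and 5.04 CPM for Dpt. They were 163 and 270 CPM for Dcn and 6770 and 7790 CPM for Col1a1. Of 10 smooth muscle and pericyte markers, 2 had an identifier. Pdgfrb stood at 170 and 165 CPM in Control, 57.9 and 57.1 CPM in HS1, 348 and 382 CPM in HS3, 121 and 85.4 CPM in HS7 and 102 and 95.9 CPM in HS14, and Rgs5 was at 0 in Control and at most 1.28 CPM elsewhere. Of 4 Schwann cell markers, S100b stood at 15.2 and 13.3 CPM in Control, 34.6 and 33.3 CPM in HS3 and between 2 and 6.12 CPM in the other groups. None of 7 erythroid and 5 macrophage markers had an identifier. The part of these cells in the levels of Gja5 and Aqp1 was not tested.

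**Figure D4:**
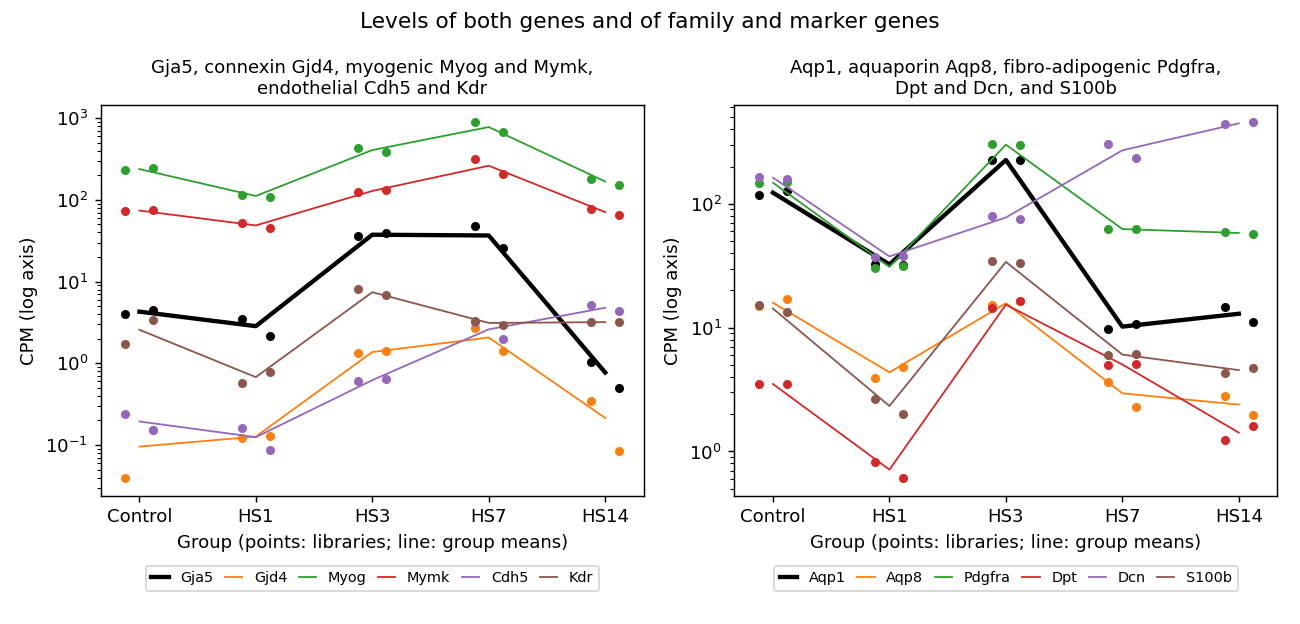
CPM on a log axis by group for Gja5 and Aqp1 beside genes of their families and markers of cell types; points are libraries and lines group means. Heights of different genes are not comparable, since CPM is not scaled to transcript length. Cdh5 is highest in HS14, where Gja5 is lowest, and Kdr and Pdgfra are highest in HS3, as Aqp1 is.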

How the data were processed

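Poly(A) RNA of 10 libraries, 2 in each of 5 groups, was sequenced by the authors from stranded libraries. The deposited values are raw counts per Ensembl gene for 32622 genes, made by the authors with STAR and featureCounts (versions 2.7 and 1.6.4 in the submitters' processing notes, which name Rnor_6.0, whereas the published methods name another rat build). Groups were taken from the sample labels. Symbols came from the published list of changed genes (770 of 817 identifiers carried one), which holds only genes called on these samples. The 2 genes and the gene lists were chosen with earlier results of these data known.

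The 4 libraries of each pair of groups were fitted with edgeR 4.0.16 in R 4.3.3, using filterByExpr, TMM normalisation and its quasi-likelihood test in robust form, and p-values were adjusted by Benjamini-Hochberg over all genes tested. A gene passed at an adjusted p under 0.01 and was called where the log2 fold change was also beyond 1.5. CPM was computed with TMM factors, and log2 CPM for correlations with a prior count of 2 over the 13691 genes kept in all 10 libraries. Total counts were 20200972 to 28175200, and 95% Poisson intervals cover counting error only. A two-sided exact permutation test of 2 against 2 libraries cannot go below p = 0.333, so none was used. The script was tested on simulated data. Genes named were the 2 genes and, among genes with a symbol, the 5 most like each by Pearson correlation. Of each list, at most 6 genes were named, most of them past both thresholds in a comparison with Control. They were a choice and did not in every list include the genes with the largest log2 fold change. Alternatives were RLE size factors, no expression filter, DESeq2 1.42.0, one fit of all 10 libraries, a replicate block, other thresholds and leaving out each library. Promoter sequences came from RefSeq (GRCr8), with a match for both genes. The list of water and ion balance genes is not reported here.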

Additional observations from a re-analysis of the deposited data

Results flagged for a closer look

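Each value here is the difference between the log2 fold changes of a gene against Control at 2 time points whose libraries all lay on opposite sides of the Control mean. None of these differences was tested, and all share the Control libraries. For Gja5 the log2 fold change in HS3 exceeded that in HS1 by 3.71 and that in HS14 by 5.56. In HS7 it exceeded that in HS1 by 3.68 and that in HS14 by 5.53. For Aqp1 the log2 fold change in HS3 exceeded that in HS1 by 2.79, that in HS7 by 4.45 and that in HS14 by 4.11.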

How the results depend on the processing

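With 2 libraries a group, single libraries decided the sign of 1 result. The log2 fold change of Gja5 in HS7 against HS3 was -0.05 with all 4 libraries. It ranged from -0.53 without HS7 replicate 1 to 0.31 without HS7 replicate 2, and was 0.02 without HS3 replicate 2. With each library left out, that of Gja5 in HS1 against Control ranged from -0.98 to -0.29. That of Aqp1 in HS14 against HS7 ranged from 0.13 to 0.54. The rise of Aqp1 in HS3 and its lower level in HS7 and HS14 than in HS1 passed under every alternative that kept all libraries. These differences kept their direction when each library was left out. Aqp1 in HS3 against HS1 had 2.81, and 2.8 with no expression filter and with all 10 libraries in one fit, with 2.8 to 2.81 when each library was left out. The cause of these changes was not tested.

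The number of genes called moved with the thresholds by construction. With a log2 fold change beyond 1 in place of 1.5 it was 531, 375, 930 and 656 against Control (HS1, HS3, HS7, HS14), 1501 in HS3, 1205 in HS7 and 635 in HS14 against HS1, 1203 in HS7 and 1416 in HS14 against HS3, and 568 in HS14 against HS7. By the adjusted p alone it was 2195, 1511, 4326, 4325, 3965, 4465, 3226, 3028, 4183 and 3084 in the same order, and with both thresholds 296, 148, 472, 334, 932, 684, 336, 646, 831 and 267. Leaving out each library, an alternative chosen after seeing the data, gave 294 to 595 in HS7 against Control (294 without Control replicate 2) and 149 to 397 in HS14 against HS7 (149 without HS14 replicate 2).

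Same-numbered libraries did not deviate together (r from -0.0165 to 0.0417 between groups), so the numbers were not taken as pairs. With the replicate block, Gja5 differed by -0.1 in HS7 against HS3 (adjusted p = 0.798 in edgeR) and by -0.61 in HS1 against Control (adjusted p = 0.134 in edgeR), and no tested difference changed its call. Of the 5 genes most like Gja5, 4 were shared with a Spearman ranking and 3 with one over group means, and for Aqp1 3 and 3.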
